A study of Mus with 7 samples.

Results

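The genes described here are 8 regulators of NF-κB signalling, named as a set of feedback genes. Tnip2 and Cyld did not rise past 1.5-fold with LPS here, as given below. The set holds the A20 gene Tnfaip3 and the A20-binding family members Tnip1, Tnip2 and Tnip3. The TRAF and IAP genes Traf1 and Birc3, the paracaspase gene Malt1 and the deubiquitinase gene Cyld complete it. The members were taken by symbol, as 8 of the 31053 genes in the files, by a rule that uses no measured value. The set was drawn up with earlier results of these data known, so its counts are descriptions. Their transcripts were counted in single fetal liver-derived macrophages (FLMs), a wt line of mouse macrophages, from C57BL/6J mice by the study's methods, that was grown in medium with GM-CSF. The study asked how the omega-3 fatty acid docosahexaenoic acid (DHA) bears on the response of these cells to lipopolysaccharide (LPS), the outer membrane lipid of Gram-negative bacteria. Droplet libraries of the 3' transcript ends were made, in which every captured molecule carries a unique molecular identifier (UMI).

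The library named Con came from cells in 10% fetal bovine serum (FBS), taken before any treatment. All other cells spent 24 h in 0.25% FBS, with 8.3 µM bovine serum albumin (BSA) in the Veh libraries or with 25 µM DHA on 8.3 µM BSA in the DHA libraries. Veh.LPS.0 and DHA.LPS.0 were collected at the end of that time. For Veh.LPS.1, Veh.LPS.4, DHA.LPS.1 and DHA.LPS.4 the medium with DHA or BSA was taken off and replaced by 20 ng/mL LPS, and cells were collected after 1 or 4 h. The libraries with LPS thus differ from those at 0 h in LPS, in the change of medium and in the added hours of culture. These parts cannot be told apart, and ratios to 0 h are called responses to LPS below with this limit. GM-CSF was present at 30 ng/mL in all 7 libraries. Each condition was a single library, so no difference given here has a replicate check, and no p-value is given.

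NF-κB is activated when a receptor such as TLR4 triggers the assembly of ubiquitin chains on adaptor proteins, which recruit the kinases that release NF-κB to the nucleus. Among the genes that NF-κB then switches on are several whose products act back on these chains. A20 and CYLD remove or edit ubiquitin chains, the A20-binding inhibitors of NF-κB (ABIN proteins, the products of the Tnip genes) bind them and bring A20 to its targets, TRAF1 and cIAP2 sit in complexes that build them, and MALT1 is both a scaffold for NF-κB activation and a protease for which A20 and CYLD are known substrates.

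The barcodes kept had more than 20000 UMIs, at least 2000 genes and less than 20% mitochondrial UMIs. They numbered 2908 in Con, 2481, 3073 and 993 in Veh at 0, 1 and 4 h, and 698, 795 and 692 in DHA at the same hours. Median depth was 29369 to 56239 UMIs per cell, and library totals were 22045775 to 125716982 UMIs. Barcodes with 20% or more mitochondrial UMIs made up 29.0 to 54.7% of the Con and Veh libraries and 74.4 to 80.0% of the DHA libraries. Every kept cell held at least 3 of 9 macrophage markers, whose summed level was 5817 to 7089 UMIs per 1000000 UMIs of a library (CPM). Of 7 other cell types (neutrophil, mast, erythroid, hepatocyte, stromal, dendritic and lymphoid), none had a kept cell with 3 or more of its markers. The 21 pairs of libraries shared 0 to 4 kept barcodes each. Levels below are CPM of the summed UMIs of a library's kept cells, and values in parentheses are exact 95% intervals that cover counting error only. Shares of cells with a UMI were taken after every kept cell had been thinned to 20000 UMIs. No cell type that lacks these genes was in the culture, so the part of free RNA in these shares was not tested.

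The 8 genes lie on 8 chromosomes of the mouse assembly GRCm38 (mm10). Tnfaip3 (ENSMUSG00000019850) lies at chr10:19000910-19015410, Tnip1 (ENSMUSG00000020400) at chr11:54910787-54962956, Tnip2 (ENSMUSG00000059866) at chr5:34496096-34513979 and Tnip3 (ENSMUSG00000044162) at chr6:65590398-65634040. Traf1 (ENSMUSG00000026875) lies at chr2:34941750-34961812, Birc3 (ENSMUSG00000032000) at chr9:7847468-7873205, Malt1 (ENSMUSG00000032688) at chr18:65430939-65478888 and Cyld (ENSMUSG00000036712) at chr8:88696878-88751946. In RefSeq the pseudogene Gm12230 overlaps the span of Tnip1, the long non-coding RNA Gm52552 that of Traf1, and the pseudogenes Gm17995 and Gm17910 that of Cyld. Whether reads of these pairs were split or discarded in counting was not tested. Birc2, the close relative of Birc3 that encodes cIAP1, lies 10336 bases away from it.

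Tnfaip3, which encodes A20, had the widest range of the 8 genes, 108-fold between its highest and lowest library. In Con it was at 1.54 CPM (194 UMIs). The Veh libraries at 0, 1 and 4 h had 4.10, 166 and 27.1 CPM, and the DHA libraries 3.94, 149 and 24.9 CPM. The level at 1 h was 40.5 times that at 0 h in Veh cells (36.7 to 44.8) and 37.8 times in DHA cells (31.9 to 45.0). By 4 h it was down to 0.163 of the 1 h level in Veh and 0.167 in DHA, and still 6.60 and 6.32 times the level at 0 h. Cells with a Tnfaip3 UMI made up 7.01%, 85.5% and 36.9% of the Veh libraries and 7.45%, 82.0% and 34.4% of the DHA libraries, in the order of the hours. Without thinning the shares were 13.4%, 90.6% and 65.7% in Veh and 15.0%, 91.4% and 46.5% in DHA, at median depths that differ between libraries. In both series the share of cells with a Tnfaip3 UMI was lowest at 0 h, highest at 1 h and in between at 4 h, with or without thinning. The 2 libraries at 4 h had overlapping intervals, as did those at 0 h.

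Tnip1, which encodes ABIN1, followed a later course than the gene of its partner A20. Con had 39.9 CPM, the Veh series 38.0, 83.4 and 145 CPM, and the DHA series 28.6, 79.7 and 178 CPM, each at 0, 1 and 4 h. The ratio to 0 h was 2.19 at 1 h (2.11 to 2.28) and 3.80 at 4 h (3.66 to 3.95) in Veh cells. In DHA cells the same ratios were 2.78 and 6.22 (5.80 to 6.67). The highest and the lowest of the 7 libraries were both DHA libraries, DHA.LPS.4 and DHA.LPS.0.

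Tnip3, whose product ABIN3 belongs to the same family, stood at 101 CPM in Con, at 104, 202 and 213 CPM with Veh and at 84.3, 153 and 166 CPM with DHA. By CPM it was near a plateau from 1 h on, with a 4 h to 1 h ratio of 1.05 in Veh (1.03 to 1.08) and 1.08 in DHA (1.04 to 1.13). Scaled on the bulk of genes (TMM factors), the log2 ratio was 0.42 in Veh and 0.30 in DHA, against 0.08 and 0.11 by CPM. The plateau thus depended on the scaling. Each DHA library was below the Veh library of its hour, and DHA.LPS.0 was the lowest of all. Tnip2, which encodes ABIN2, a partner of the kinase TPL2, was the least variable of the 8. Its 7 libraries lay between 11.9 and 15.2 CPM, a range of 1.28-fold, and every neighbouring pair in the order of levels had overlapping intervals. Libraries further apart in that order did not all overlap. The 4 h to 1 h ratio was 0.804 in Veh (0.734 to 0.880) and 0.822 in DHA (0.703 to 0.958). With TMM factors these log2 ratios were 0.03 and -0.09. Of the ABIN genes, Tnip1 and Tnip3 were therefore past 1.5-fold with LPS at both hours and Tnip2 at neither.

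**Figure D1:**
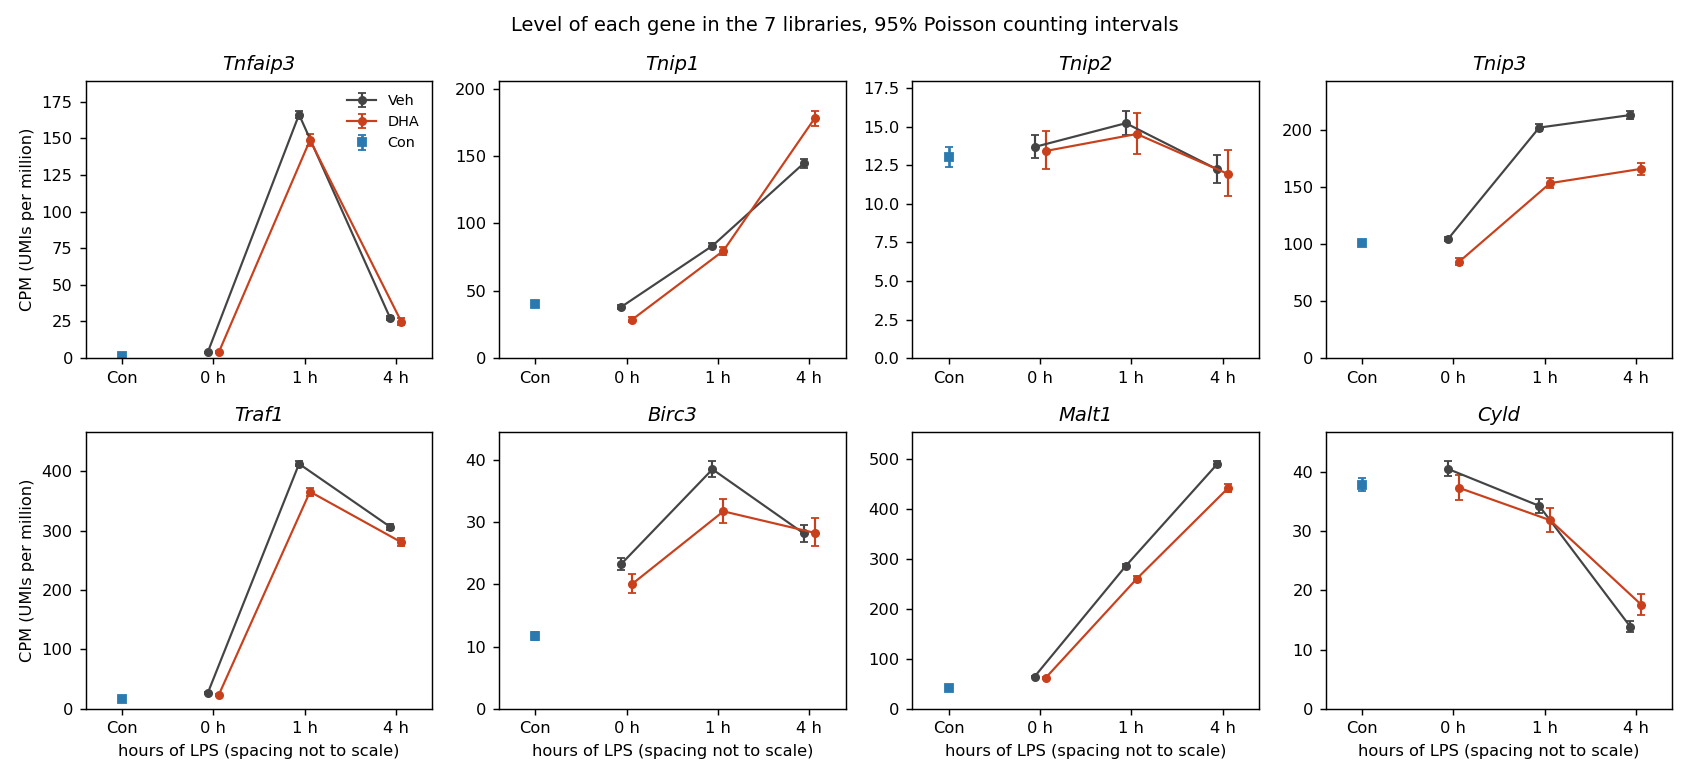
Level of each of the 8 genes in CPM (vertical axis, a separate scale for each gene, starting at 0) in Con and at 0, 1 and 4 h of LPS in Veh and DHA cells, with spacing of hours not to scale. Points are single libraries and bars are exact 95% Poisson counting intervals. Tnfaip3, Traf1 and Birc3 were highest at 1 h, Tnip1 and Malt1 at 4 h, and Cyld was lowest at 4 h.

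Traf1 encodes a TRAF protein without the ubiquitin ligase domain of its relatives, which joins TRAF2 and the cIAP proteins. Its level was 15.7 CPM in Con, ran from 26.6 to 412 to 306 CPM over the hours in Veh and from 23.3 to 365 to 280.3 CPM in DHA. No neighbouring pair of its 7 libraries had overlapping intervals. The ratio to 0 h was 15.5 at 1 h (14.9 to 16.1) and 11.5 at 4 h (11.0 to 12.0) in Veh cells, and 15.7 and 12.0 in DHA cells. The share of Veh cells with a Traf1 UMI was 37.8% at 0 h, 99.2% at 1 h and 96.7% at 4 h, when Tnfaip3 was found in 36.9%. Without thinning the Traf1 shares were 56.2%, 99.5% and 99.5%. At 4 h in Veh, Traf1 was at 0.742 of its 1 h level (0.729 to 0.755) and Tnfaip3 at 0.163.

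Birc3, which encodes the ubiquitin ligase cIAP2, moved far less. From 11.7 CPM in Con it came to 23.2, 38.5 and 28.2 CPM with Veh and to 20.0, 31.7 and 28.3 CPM with DHA. The ratio to 0 h in Veh was 1.65 at 1 h (1.57 to 1.74) and 1.21 at 4 h (1.14 to 1.29). The ratio of Veh.LPS.0 to Con, 1.99 (1.87 to 2.13), was larger than either. Birc2 was at 11.7 CPM in Con and between 6.53 and 17.0 CPM in the other libraries, with the highest value in DHA.LPS.0 and the lowest in DHA.LPS.4.

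Malt1 reached its highest level at 4 h in both series. From 41.8 CPM in Con it went to 64.3, 286 and 489.6 CPM in the Veh series and to 61.6, 260.3 and 442 CPM in the DHA series. The ratio to 0 h was 4.45 at 1 h (4.33 to 4.57) and 7.61 at 4 h (7.41 to 7.82) in Veh, and the 4 h level was 1.71 times that at 1 h. Malt1 and Tnip1 were the members still climbing between 1 and 4 h by more than 1.5-fold.

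Cyld was the only member more than 1.5-fold lower with LPS than at 0 h. Con was at 37.8 CPM, the Veh libraries went from 40.5 to 34.3 to 13.8 CPM and the DHA libraries from 37.3 to 31.8 to 17.6 CPM. At 4 h it stood at 0.341 of the 0 h level in Veh (0.316 to 0.368) and at 0.470 in DHA (0.419 to 0.527). The share of cells with a Cyld UMI was 55.4% in Veh.LPS.0, 47.9% in Veh.LPS.1 and 23.2% in Veh.LPS.4 (76.7%, 62.1% and 49.7% without thinning). Most of the difference arose after the first hour, when Tnfaip3, the other deubiquitinase gene of the set, was also on its way down.

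Some members differed between Veh.LPS.0 and Con, before any LPS. These libraries differ in serum, in BSA and in 24 h of culture, whose parts cannot be told apart. A gene was counted as higher or lower by size where the CPM ratio was past 1.5-fold and it reached 25% of cells. That share was taken before thinning and had to be reached in at least 1 of the libraries compared. Tnip2 passed it with 40.7% in Veh.LPS.0 and 41.6% in Con, which were 24.6% and 23.2% after thinning. In Veh.LPS.0 against Con, 3 of 7 members counted were higher, Birc3 at 1.99, Traf1 at 1.70 and Malt1 at 1.54, and none was lower. Among the 8252 genes counted, 9.31% were higher and 7.76% lower. The median log2 ratio was 0.36 for the members and -0.07 for all genes. Tnfaip3 did not reach 25% of cells in either library and was left out of the count, with a ratio of 2.66 on 405 and 194 UMIs. With TMM factors, which scale libraries on the bulk of genes, Malt1 came to 0.58 on the log2 scale, just inside the limit, and 2 members were counted, at backgrounds of 8.35% higher and 9.73% lower.

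Cell cycle genes moved along with this comparison. Mki67, a marker of cycling cells, was at 584 CPM in Con against 477 CPM in Veh.LPS.0, and only 118 cells of Con (4.06%) had no UMI of Mki67 or Top2a, against 12.6% of Veh.LPS.0 cells. In those cells alone the log2 ratio of Veh.LPS.0 to Con was 0.06 for Traf1, 0.47 for Birc3, 0.53 for Malt1, -0.23 for Tnfaip3 and -0.74 for Tnip1, so none of the 3 higher calls was kept there. The value for Tnfaip3 was taken from the unthinned UMIs of those cells and rests on few UMIs. After thinning the means per cell were 0.0847 in Con and 0.0415 in Veh.LPS.0, a wider gap, so its size depended on thinning. Within Con, the cells without a UMI of either gene held 0.610 Traf1 UMIs on average and the other 2790 cells held 0.304.

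Most of the set was higher after 1 h of LPS. In Veh.LPS.1 against Veh.LPS.0, 6 of 8 members were higher and none lower, where 4.15% of the 8089 genes counted were higher and 4.24% lower. The 6 were Tnfaip3, Traf1, Malt1, Tnip1, Tnip3 and Birc3, with log2 ratios of 5.34, 3.95, 2.15, 1.13, 0.95 and 0.73. Tnip2 and Cyld stayed inside the limit at 0.15 and -0.24. The members' median log2 ratio was 1.04 and that of all genes -0.10. The same 6 were higher in DHA.LPS.1 against DHA.LPS.0, where 4.66% of genes were higher and 4.97% lower.

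At 4 h in Veh, 5 of 8 members were higher and Cyld was lower, where 10.2% of the 8385 genes counted were higher and 38.3% lower. The higher members were Traf1 at a log2 ratio of 3.52, Malt1 at 2.93, Tnfaip3 at 2.72, Tnip1 at 1.93 and Tnip3 at 1.03. Cyld was at -1.55, among a large share of all genes on the lower side. The members' median was 1.48, and that of all genes -0.36. TMM factors moved the median of all genes to 0.07 and the background shares to 21.6% higher and 21.1% lower. Birc3 then passed the limit at 0.71, Cyld was still lower at -1.12, and Tnip2 changed sign from -0.16 to 0.27. In DHA.LPS.4 against DHA.LPS.0, 5 members were higher and Cyld was lower, at backgrounds of 9.64% and 33.6%.

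From 1 to 4 h in Veh, Tnip1 and Malt1 were higher and Tnfaip3 and Cyld lower, where 7.98% of 8010 genes were higher and 29.3% lower. The log2 ratios were 0.79 for Tnip1, 0.78 for Malt1, -2.62 for Tnfaip3 and -1.31 for Cyld. Traf1 and Birc3 were at -0.43 and -0.45, close to the median of all genes of -0.25, and TMM factors brought them to -0.09 and -0.11. Tnip3 was at 0.08, and at 0.42 with TMM factors. The same 4 members were past the limit in DHA cells from 1 to 4 h, at backgrounds of 6.97% higher and 23.3% lower. These comparisons share libraries with those at 1 and 4 h against 0 h, so their values are given side by side.

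**Figure D2:**
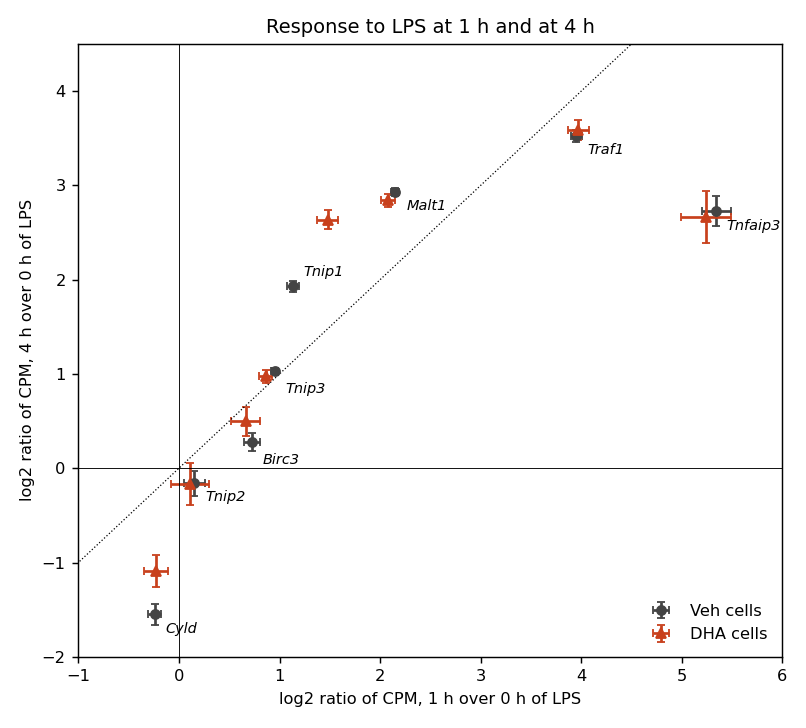
Log2 CPM ratio at 4 h over 0 h of LPS (vertical axis) against that at 1 h over 0 h (horizontal axis) for the 8 genes in Veh cells (circles) and DHA cells (triangles), 1 library per condition, with 95% counting intervals. Names stand beside the Veh points and the dotted line marks equal ratios. Tnfaip3 lies far to the right of the line, at 5.34 and 2.72 in Veh, while Malt1 and Tnip1 lie above it and Cyld lies below 0 on both axes.

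**Figure D3:**
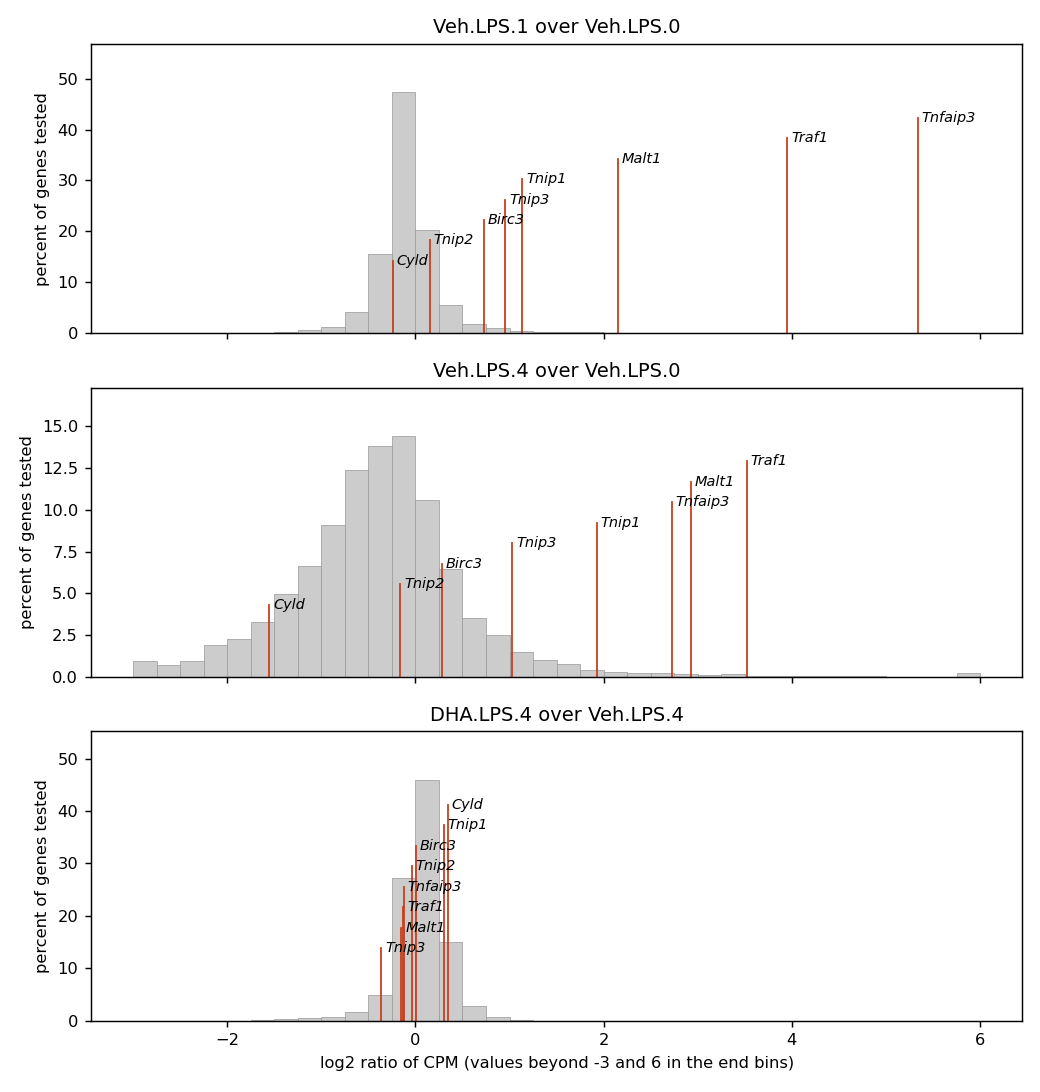
Distribution of the log2 CPM ratio over all genes that were counted (grey bars, percent of genes, bins at the ends hold values beyond -3 and 6), with each member as a red line whose height carries no value. The panels show 1 h and 4 h of LPS in Veh cells and DHA over Veh at 4 h. Tnfaip3, Traf1 and Malt1 lie in the right tail with LPS, and for DHA the members lie between -0.36 (Tnip3) and 0.34 (Cyld).

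DHA was compared with Veh at each hour. No member was past 1.5-fold at 0 h (7 counted), 1 h (8 counted) or 4 h (8 counted). The genes past the limit at those hours were 1.08%, 1.33% and 2.22% of all on the higher side and 0.949%, 1.73% and 2.42% on the lower side. The members' median log2 ratio was -0.15 at 0 h, -0.15 at 1 h and -0.08 at 4 h, and that of all genes -0.05, -0.05 and 0.08. Within the limit, the members did not all behave alike.

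Tnip3 was lower with DHA at every hour. Its ratio was 0.808 at 0 h (0.775 to 0.842), 0.759 at 1 h (0.735 to 0.783) and 0.779 at 4 h (0.750 to 0.808). These ratios ranked at the 8.17th, 5.49th and 4.99th percentile of all genes counted, and the sign was the same under all 8 other ways of choosing or scaling cells at each hour. The ratio was much the same before and after LPS, and the log2 response to LPS at 4 h was 1.03 in Veh and 0.98 in DHA cells. Traf1 was also lower with DHA at each hour, by a smaller amount, with ratios of 0.876, 0.886 and 0.916. For Malt1 the ratios were 0.957, 0.910 and 0.902, and for Tnfaip3 they were 0.961, 0.895 and 0.919. The intervals for Malt1 at 0 h and Tnfaip3 at 0 and 4 h included 1. Of the 8 other ways, the sign held under 8, 7 and 7 for Traf1 at 0, 1 and 4 h. It held under 8, 7 and 8 for Malt1 and under 5, 7 and 7 for Tnfaip3. The log2 ratio of Traf1 was 0.06 over all deposited barcodes at 1 h and 0.04 in cells with no Mki67 or Top2a UMI at 4 h.

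Tnip1 stood below Veh at 0 h, with a log2 ratio of -0.41 (-0.51 to -0.31), and above it at 4 h, with 0.30 (0.25 to 0.35). At 1 h the ratio was -0.07. Its log2 response to 4 h of LPS was 1.93 in Veh and 2.64 in DHA cells, the widest gap of the 8 genes at 0.71. Over all deposited barcodes, most of which in the DHA libraries had a high mitochondrial share, the ratio was -0.76 at 0 h, past the limit, and -0.17 at 4 h, so the sign at 4 h depended on which barcodes were kept. Cyld had log2 ratios of -0.12, -0.11 and 0.34 (0.17 to 0.52) at 0, 1 and 4 h. Birc3 had ratios of 0.862 and 0.824 at 0 and 1 h and 1.00 at 4 h (0.913 to 1.10), and with TMM factors its log2 ratio at 4 h was -0.12. Tnip2 was within 0.07 of 0 on the log2 scale at all hours, and each interval included 0.

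**Figure D4:**
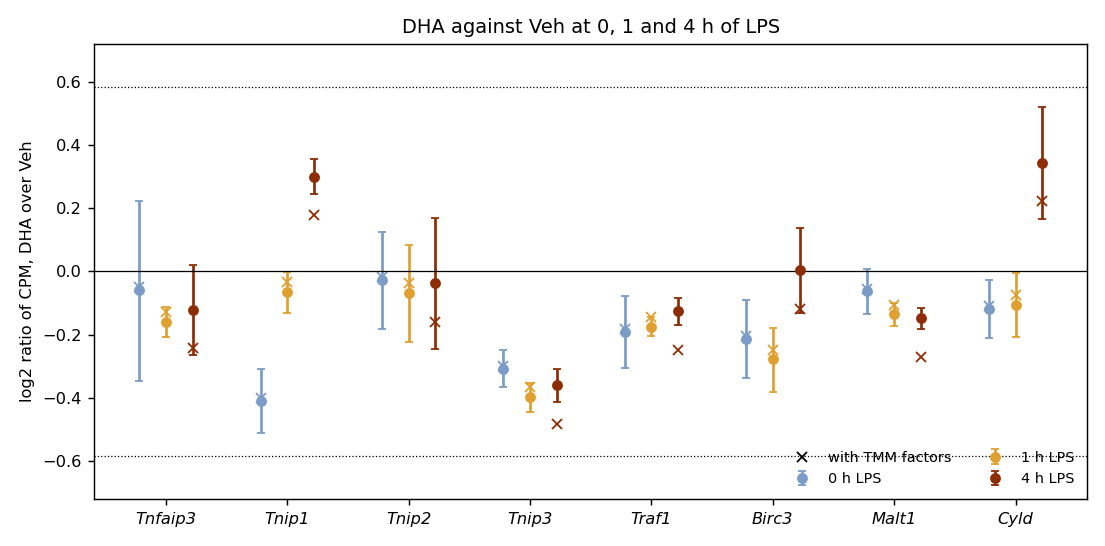
Log2 CPM ratio of DHA over Veh (vertical axis) for each gene at 0, 1 and 4 h of LPS, 1 library per condition, with 95% counting intervals. Crosses give the ratio with TMM factors and dotted lines mark 1.5-fold. Tnip3 lies below 0 at all hours, and Tnip1 and Cyld lie below 0 at 0 h and above 0 at 4 h.

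Mitochondrial share and cell cycle genes differed between DHA and Veh too. Over the hours Mki67 went from 477 to 486 to 97.3 CPM in Veh and from 344 to 316 to 153 CPM in DHA. In cells with no UMI of Mki67 or Top2a the DHA to Veh log2 ratio of Tnip3 was -0.48, -0.52 and -0.46 at 0, 1 and 4 h, and that of Tnip1 was -0.30, 0.08 and 0.31. The ratios for Tnfaip3 there were 0.49, 0.20 and 0.01, each of the opposite sign to that over all kept cells. The Tnfaip3 value at 0 h was taken from unthinned UMIs and rests on few of them. After thinning the means per cell were 0.0415 in 313 Veh cells and 0.0726 in 179 DHA cells, a wider gap. In cells with under 10% mitochondrial UMIs, all 80 log2 ratios of members over all comparisons stayed within their counting intervals. The part of cell cycle state and mitochondrial share in the small DHA ratios was not tested.

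Across single cells thinned to equal depth, the members were found together more often after LPS. A UMI of at least 6 of the 8 members was found in 2.75% of Con cells, in 7.21%, 59.8% and 29.9% of Veh cells at 0, 1 and 4 h, and in 6.59%, 51.4% and 33.2% of DHA cells. The share with UMIs of Tnfaip3, Traf1 and Malt1 together in Veh was 2.42% at 0 h, 78.4% at 1 h (76.9 to 79.8) and 35.2% at 4 h (32.3 to 38.3). Each of these genes alone was also found in more Veh cells at 1 and 4 h than at 0 h, which by itself raises the joint share. Whether they were found together more often than their single shares imply was not tested. Cells with no UMI of any member made up 1.51% of Con, 0.887% of Veh.LPS.0 and 1.29% of DHA.LPS.0, and none were found in the 4 libraries with LPS. Taking 3 cells as the most that finding none allows, the share could be up to 0.434% in DHA.LPS.4. This limit is not an exact interval. Within libraries, the 28 gene pairs had median Spearman correlations of 0.01 to 0.05 across cells. The highest was 0.29, for Tnfaip3 with Traf1 in Veh.LPS.1, over 3073 cells that share 1 library.

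By the ratio of variance to mean, Malt1 was the most uneven member over cells in the 4 libraries with LPS. It was so in Veh.LPS.0 as well, at 1.99 against 1.90 for Tnip3. In Con and DHA.LPS.0 the most uneven member was Tnip3. The variance of Malt1 was 5.06 times its mean in Veh.LPS.1 and 5.36 times in Veh.LPS.4. The values were 2.93 and 3.11 for Tnip3, 2.62 and 2.66 for Traf1 and 1.31 and 1.41 for Tnip1. Random counting alone would give a value near 1. This ratio can rise with the level of a gene, and Malt1 had the highest mean of the members at 4 h. In Veh.LPS.4 the standard deviation of Malt1 was 7.18 at a mean of 9.61 UMIs. It was 3.70 at 4.39 for Tnip3 and 0.876 at 0.536 for Tnfaip3, both larger than that of Malt1 when set against the mean. At 4 h a Veh cell held a median of 8 Malt1 UMIs, the 90th percentile was 20 UMIs, and 4.03% of cells held none. Cells above the median count of Il1b, an inflammatory cytokine, held on average 12.5 Malt1 UMIs in Veh.LPS.4 (465 cells) and the other 528 cells 7.02. In DHA.LPS.4 the values were 10.7 and 6.96. The other members differed by 1.32-fold or less between these cells, with 3.20 and 2.65 UMIs for Tnip1 and 6.66 and 5.76 for Traf1 in Veh.LPS.4. A split on the sum of 5 interferon genes gave 9.58 and 9.63 Malt1 UMIs in the same library.

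At 1 h the cells were split by a UMI of Acod1, the itaconate-producing enzyme induced by LPS. Veh.LPS.1 cells with Acod1 held 4.09 Tnfaip3 UMIs (968 cells) and those without held 2.99 (2105 cells), and in DHA.LPS.1 the values were 3.56 and 2.74. Malt1 was at 6.66 and 5.28 and Traf1 at 9.12 and 7.81 in Veh.LPS.1. Tnip1 at 1.71 and 1.62 and Tnip3 at 4.22 and 4.09 had intervals of the ratio that included 1 there. In DHA.LPS.1 the ratio for Tnip3 was 1.10 (1.01 to 1.21) and the interval for Tnip1 included 1. These intervals cover counting error only and leave out the spread between cells. The variance of Tnip3 over the DHA.LPS.1 cells was 3.15 times its mean, so an interval over cells would be wider.

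**Figure D5:**
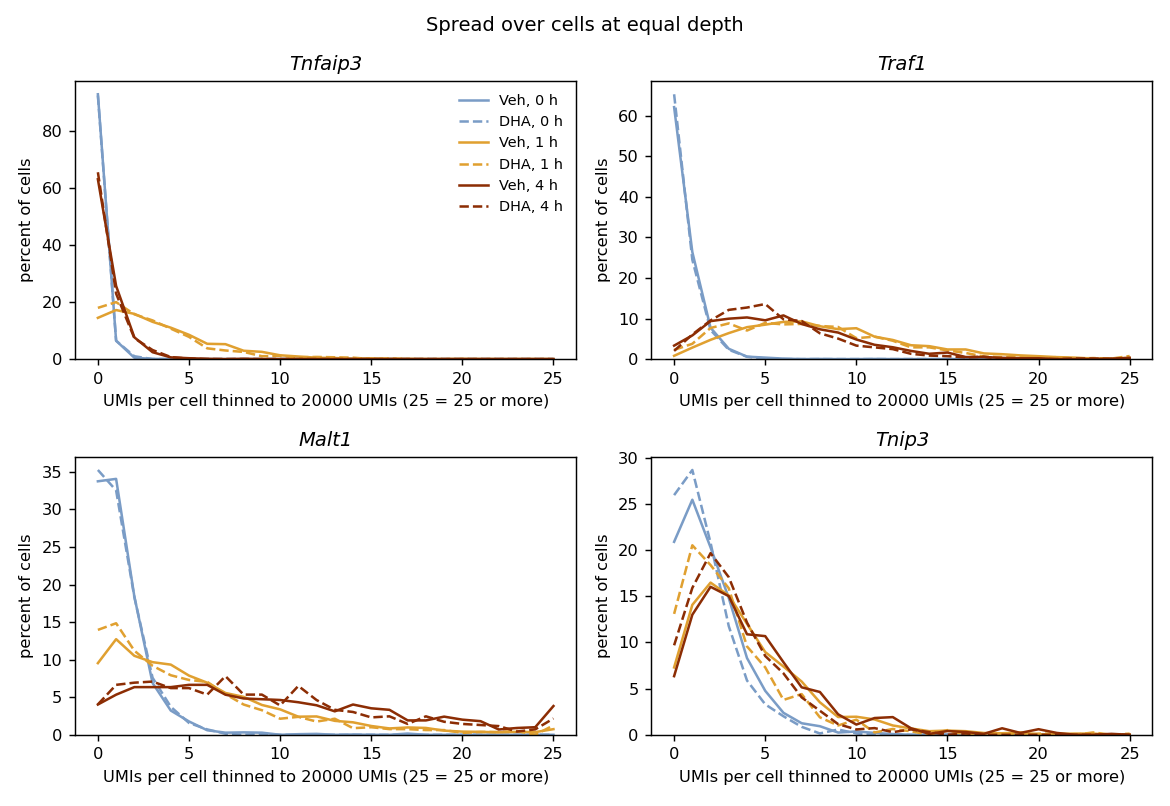
Share of cells (vertical axis, percent) by number of UMIs (horizontal axis, cells thinned to 20000 UMIs, 25 stands for 25 or more) of Tnfaip3, Traf1, Malt1 and Tnip3 in Veh (solid) and DHA (dashed) cells at 0, 1 and 4 h. For Tnfaip3 at 4 h most cells are at 0 UMIs, a share between those at 0 h and 1 h. The Traf1 curve at 4 h is close to that at 1 h, and the Malt1 curve is the broadest at 4 h.

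The members were then set beside other genes of the pathway, in lists drawn up from known function. Earlier results of these data were known when the lists were drawn up, so their counts are descriptions. Of 15 partners of A20 and genes of linear ubiquitin chains, 12 could be counted at 1 h in Veh, and Spata2, an adaptor of CYLD, was the only one past the limit, at 1.55-fold. At 4 h Rnf11, a partner of A20, was higher at 1.71-fold, and Rbck1 and Sharpin, which encode subunits of the linear ubiquitin ligase, were lower at 0.426 and 0.602, of 13 counted. TMM factors gave 2 higher and 1 lower. Tax1bp1, a further partner of A20, lay between 179 and 239 CPM in all 7 libraries. These shares past the limit can be read against the backgrounds of 4.15% higher and 4.24% lower at 1 h and 10.2% and 38.3% at 4 h. With TMM factors the backgrounds at 4 h were 21.6% and 21.1%.

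Of 20 other TRAF and IAP genes and their partners, 2 were higher and 2 lower at 1 h in Veh (19 counted), Cflar at 6.13-fold, Tank at 2.33-fold, Tifa at 0.598 and Map3k14 at 0.608. Cflar encodes c-FLIP, the inhibitor of caspase-8, and TANK binds TRAF proteins. At 4 h 4 were higher and 8 lower of 20, where 10.2% and 38.3% of all genes were, or 8 and 6 with TMM factors, where 21.6% and 21.1% were. The lower ones included Traf4 at 0.181, Tifa at 0.179 and Birc5, a mitotic gene, at 0.247. In Veh, Traf2 went from 10.6 to 15.3 to 15.9 CPM over the hours, while Traf3 and Traf6 stayed between 6.68 and 10.8 CPM in all 7 libraries.

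The list of 10 CARD and BCL10 partners and MALT1 substrates had 4 of 7 counted genes higher at 1 h in Veh, and none lower. These were Zc3h12a at 6.88-fold, Bcl10 at 2.37-fold, Relb at 2.21-fold and Rc3h1 at 1.56-fold. Zc3h12a and Rc3h1 encode the RNA-decay factors Regnase-1 and Roquin-1, and RelB is an NF-κB subunit. The same 4 were higher at 4 h, Zc3h12a at 10.1-fold, and Card9 was lower at 0.601, though inside the limit with TMM factors. No Card10 UMI was found in any library. Of 19 kinases and adaptors upstream of NF-κB, Ikbke at 2.01-fold and Peli1 at 1.78-fold were higher of 17 counted at 1 h. At 4 h 6 of 17 were higher, among them Ikbke at 3.26-fold, Peli1 at 3.02-fold and Ripk2 at 2.50-fold, and Irak4 was lower at 0.468. With TMM factors 10 were higher and 1 lower. Of all genes 4.15% were higher and 4.24% lower at 1 h in Veh, and 10.2% and 38.3% at 4 h. With TMM factors the shares of all genes at 4 h were 21.6% and 21.1%.

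None of the 4 lists had a gene past 1.5-fold between DHA and Veh at 0 or 1 h. At 4 h Trafd1, a negative regulator of TLR signalling, was lower with DHA, at 12.6 against 27.9 CPM, a ratio of 0.453 (0.397 to 0.514). Birc5 was higher, at 66.9 against 43.0 CPM, and was inside the limit with TMM factors. Both genes are in the TRAF and IAP list, with 16 genes counted. With TMM factors 2 genes of that list were lower, and 1 of the 17 counted kinases and adaptors. Of all genes 2.22% were higher and 2.42% lower at 4 h, or 1.25% and 3.42% with TMM factors. Veh.LPS.0 against Con gave 3 higher genes of 20 in the TRAF and IAP list, Tifa, Traf5 and Naip2. Among the kinases and adaptors 3 of 18 were higher, with Irak2 the furthest at 3.51-fold, and Myd88 was lower at 0.666. Of all genes 9.31% were higher and 7.76% lower in that comparison. Relb at 1.88-fold and Zc3h12a at 1.54-fold were higher in the MALT1 list, the latter inside the limit with TMM factors.

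The genes most like Tnfaip3, Tnip1, Tnip3, Traf1 and Birc3 were sought over the 7 libraries, by Pearson r of log2(CPM + 1), among 4043 genes that reached 25% of the cells in some library and spanned 2-fold or more. For Tnfaip3 they were Cflar at 0.996, the receptor-inhibitor gene Errfi1 at 0.995 and the cytokine gene Osm at 0.994. Osm was at 6.32 CPM in Con, 8.28, 107 and 35.3 CPM in Veh and 8.22, 109 and 24.4 CPM in DHA. For Traf1 they were Gm20186 at 0.999, Tnf, the gene of tumour necrosis factor, at 0.998 and Bcl10 at 0.995. Tnf was at 152, 3799 and 2287 CPM in Veh and 143, 3482 and 1864 CPM in DHA.

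For Tnip1 the most alike were Ikbke at 0.994, the actin gene Actg1 at 0.991 and Sh3pxd2b at 0.989. Ikbke had 15.3, 30.8 and 49.8 CPM in Veh and 11.2, 28.8 and 57.4 CPM in DHA. Ikbke, Actg1 and Sh3pxd2b were each highest in DHA.LPS.4 and lowest in DHA.LPS.0, as Tnip1 was. They were picked for likeness to Tnip1 over these same libraries, so this shared order follows in part from the choice. For Tnip3 they were Frmd6 at 0.990, the ER chaperone gene Dnajb9 at 0.982 and the fatty acid receptor gene Gpr84 at 0.977. Gpr84 had 38.0, 266 and 383 CPM in Veh and 21.6, 150 and 308 CPM in DHA. Genes near to Birc3 were less alike, with 5033406O09Rik at 0.977 and Vegfa at 0.960. These correlations rest on 7 libraries that share serum, LPS and DHA contrasts, and are descriptions with no test.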

How the data were processed

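The authors deposited, for each of the 7 libraries, raw UMI counts per gene for every barcode that Cell Ranger called as a cell, not normalized and not filtered on quality. The file headers and the submitters' processing notes give Cell Ranger 3.1.0, while the study's methods name another version, and the notes give the genome build mm10. Here barcodes were kept with the study's limits (more than 20000 UMIs, at least 2000 genes, less than 20% mitochondrial UMIs). UMIs were summed per gene and library and divided by the library total to give CPM. Library totals were 22045775 to 125716982 UMIs, and no column of other samples was present.

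With 1 library per condition no test was run. Each ratio carries an exact binomial 95% interval on the summed UMIs, each CPM an exact Poisson interval and each share an exact binomial one, all for counting error only. The call by size (past 1.5-fold, a UMI in at least 25% of cells of either library) was tested on simulated data. TMM factors came from edgeR 4.0.16 (R 4.3.3), with no edgeR test. Scripts ran in Python 3.11.15 with numpy 2.4.6, scipy 1.17.1 and pandas 2.3.3. For the shares of cells given as results each cell was thinned once to 20000 UMIs, and no kept cell was shallower. The limit of 25% of cells used shares before thinning. No doublet caller was run, and leaving out the 5% of cells with most UMIs stands in its place. Alternatives were TMM factors, more than 10000 UMIs, under 10% mitochondrial UMIs, all barcodes, thinned cells, means of single-cell CPM, no top 5%, cells without Mki67 or Top2a UMIs, no limit on the share of cells, a limit of 25% on its average over libraries, and limits of 2-fold and 50% of cells together.

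The members and gene lists were chosen with earlier results of these data known. Named genes were all 8 members, up to 4 genes of each list and comparison with the largest ratio past the limits, and the 3 genes most like Tnfaip3, Tnip1, Tnip3, Traf1 and Birc3. Tax1bp1, Traf2, Traf3, Traf6, Birc2 and Card10 were named from the lists after their values were seen. Positions of the 8 members were matched by symbol to RefSeq genes of GRCm38.p6. Promoter and protein sequences were not analysed here, and some genes that the rule names are not reported here.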

Additional observations from a re-analysis of the deposited data

Results flagged for a closer look

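The DHA to Veh ratio of Tnip1 went one way at 4 h of LPS and the other way at the earlier hours. Its log2 ratio was 0.30 at 4 h, -0.41 at 0 h and -0.07 at 1 h, and with TMM factors it was 0.18, -0.40 and -0.03. Over all deposited barcodes the 4 h value was -0.17. Cyld was singled out in the same way, with a log2 ratio of 0.34 at 4 h against -0.12 at 0 h and -0.11 at 1 h, and 0.22, -0.11 and -0.07 with TMM factors. Over all deposited barcodes Cyld was at 0.03 at 4 h. Each side of these differences is 1 library, and the difference was not tested.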

How the results depend on the processing

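Counts of members past the limits in the 7 main comparisons were recomputed under each alternative. Of the 154 counts, 143 were identical to the reported ones and 6 moved by more than 1.5-fold. The reported counts for DHA against Veh were all 0, so their identical counts are 0 against 0 and say little about stability. In cells with no Mki67 or Top2a UMI, the members higher in Veh.LPS.0 than in Con went from 3 to 0, those lower from 0 to 1 (Tnip1), and those higher at 4 h than at 1 h in Veh from 2 to 1. With no limit on the share of cells, or 25% on average over libraries, Tnfaip3 joined those higher in Veh.LPS.0 than in Con, giving 4. With limits of 2-fold and 50% of cells, the members higher in Veh.LPS.0 than in Con and those higher at 4 h than at 1 h both went to 0. Over all deposited barcodes 1 member, Tnip1, was lower with DHA than with Veh at 0 h, in place of 0. The share of all genes past the limits under the same alternative is not given for these counts, so they stand without a background. For stricter limits and fewer cells, the move follows partly from the alternative's own construction, and otherwise the cause was not tested. Of 640 log2 ratios of members under alternatives, 492 stayed within the counting interval, 28 changed sign (13 in cells with no Mki67 or Top2a UMI, 6 over all barcodes and 5 with TMM factors) and none that was past the limits reversed. No paired analysis was possible because the labels give no replicate numbers and each condition is 1 library, and for the same reason no library could be left out of a condition. Depth limits Tnfaip3 without LPS (138 UMIs in DHA.LPS.0) and Tnip2 and Cyld at 4 h (263 and 387 UMIs in DHA.LPS.4), and the intervals do not cover variation between cultures.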

Other observations

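Tnip3 was higher in cells with no UMI of Mki67 or Top2a in each of the 7 libraries, by ratios of means between the cells with and the cells without such a UMI of 0.725 in Con, 0.840, 0.823 and 0.729 in Veh at 0, 1 and 4 h and 0.927, 0.875 and 0.905 in DHA. The interval for DHA.LPS.0 (0.815 to 1.06) included 1. Malt1 was on the same side in all 7 libraries, with the interval including 1 in Veh.LPS.4. Cyld in Veh.LPS.4 went the other way, with 0.344 UMIs on average in the 500 cells with a UMI of either gene and 0.215 in the other 493. These splits were made within libraries on cells thinned to 20000 UMIs, and how total RNA per cell bears on them was not tested. Their intervals cover counting error only and leave out the spread between cells.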
